A study of Mus musculus with 7 samples.

Results

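CTCF binding was compared between a ChIP-exo library of 270,000 mouse liver cells and one of 2,700,000, to see which sites and genomic places were still found with 10 times fewer cells. The members are all peaks placed on the 19 autosomes. Left out were the mitochondrial genome, unplaced sequences, the sex chromosomes and 38 autosomal bins of 10 kb that held 20 or more peaks in both libraries. This left 1331120 of 1392773 peaks at 2,700,000 cells and 150469 of 163335 peaks at 270,000 cells, out of 2603994 peaks in the 7 libraries of the series. ChIP-exo 5.0 trims immunoprecipitated DNA with an exonuclease that halts beside the crosslinked protein, so the start of a read, here called a tag, marks an exonuclease stop. Each deposited peak is 21 bp wide, lies on 1 strand, and holds at least 2 tags. Brain, lung, kidney, liver organ and 27,000 liver cells, with 1 library each, complete the series and serve here as readouts that the kept or lost call does not use.

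Both libraries came from wildtype liver. Per the study's methods the mice were adult males of 16 weeks and tissue was processed in pieces of 100 mg. The study's methods give 1% formaldehyde and the labels 0.3%. The labels name a rabbit CTCF antiserum from Millipore for each library, whereas their extraction protocol names IgG. Cell numbers were estimated from the wet weight of tissue rather than counted. Whether the libraries were drawn from 1 chromatin preparation or 1 animal is stated neither by the labels nor by the methods. Since each side is a single library, replicate error is unknown and nothing was tested. All intervals are 95% intervals and cover counting error only, and fewer cells, the library and its sequencing depth cannot be told apart.

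CTCF is a DNA-binding protein whose zinc fingers read a long asymmetric motif. It halts cohesin as that complex extrudes chromatin loops, and pairs of motifs that point towards each other mark many loop anchors. CTCF sites insulate enhancers from promoters, and a large share of them is occupied in many tissues, with others particular to 1 cell type.

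Sequences of 8 sites show what a kept and a lost site look like. A site is a forward peak with a reverse peak 10 to 80 bp downstream at 2,700,000 cells, which is the arrangement that stops on either side of a bound protein give. It was called kept when the 200 bp around its centre held a listed peak at 270,000 cells, and lost otherwise. A lost site therefore lacks a peak of 2 or more tags, and single tags are not listed. The 4 kept and the 4 lost sites with most tags were taken which lie within 250 bp upstream of a RefSeq start, outside any gene body, and whose peaks enclose the core motif, CCA and AG and GGC with 2 bases of any kind in each gap. They are printed as 61 bases of the plus strand, taken from RefSeq promoter windows of GRCm38.p6 (mm10), with the motif or its reverse complement in capitals.
Vmn2r29, kept, chr7:7278478-7278538: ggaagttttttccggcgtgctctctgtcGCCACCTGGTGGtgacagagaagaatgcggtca
Adprhl2, kept, chr4:126321720-126321780: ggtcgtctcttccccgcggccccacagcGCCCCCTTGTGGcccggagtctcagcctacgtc
Aqr, kept, chr2:114175387-114175447: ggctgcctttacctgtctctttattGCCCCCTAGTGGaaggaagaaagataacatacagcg
Gm38615, kept, chr5:129063448-129063508: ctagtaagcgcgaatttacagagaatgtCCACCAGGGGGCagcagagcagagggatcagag
Ext2, lost, chr2:93822576-93822636: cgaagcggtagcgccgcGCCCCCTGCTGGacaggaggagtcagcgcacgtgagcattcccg
E330013P04Rik, lost, chr19:60144514-60144574: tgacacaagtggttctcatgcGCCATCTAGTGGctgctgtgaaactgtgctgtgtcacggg
Fam133b, lost, chr5:3543743-3543803: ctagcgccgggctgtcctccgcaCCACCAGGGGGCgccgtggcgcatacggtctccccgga
Nsfl1c, lost, chr2:151494087-151494147: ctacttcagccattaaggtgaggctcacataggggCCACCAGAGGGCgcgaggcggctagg

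The site of Vmn2r29, a vomeronasal receptor gene, held 384 tags at 2,700,000 cells and 11 at 270,000, with stops at bases 18 and 45 of the printed sequence around a motif at bases 29 to 40. That of Adprhl2, which encodes an ADP-ribose hydrolase, held 341 and 29. The site of Aqr, which encodes an RNA helicase of the spliceosome, held 340 and 11, and that of the noncoding gene Gm38615 315 and 17. Among the lost sites, that of Ext2, which encodes an enzyme of heparan sulfate synthesis, held 201 tags at 2,700,000 cells. Those of E330013P04Rik and Fam133b held 117 each, and that of Nsfl1c, which encodes a cofactor of the p97 ATPase, held 104. The lost site of Fam133b and the kept site of Gm38615 share the same 12 letters of the motif. Within these 8 sites the kept ones had more tags than the lost ones. They were taken as the strongest of each call, and promoter windows with a kept site of 100 or more tags numbered 258 against 39 with a lost one. The order among the 8 therefore carries no weight.

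The number of tags at 2,700,000 cells set sites apart most. Of 75862 sites, 22097 were kept, or 29.1% (28.8 to 29.5), whereas 1.69% of the same windows moved by 5 kb held a peak. Of sites of 4 tags, the fewest a site can hold, 2.30% were kept (1.90 to 2.79), close to the 1.57% of their moved windows. The kept share was 9.09% at 10 to 19 tags, 20.004% at 20 to 49 and 41.2% at 50 to 99. It was 68.2% (67.3 to 69.1) at 100 to under 200 tags and 90.0% (88.9 to 91.0) at 200 or more. Even in the strongest class 315 of 3146 sites had no listed peak at 270,000 cells. Of the 28988 sites of 50 or more tags, 16316 were kept, or 56.3%. Of the 28988, 14795, or 51.0%, had another such site within 200 bp and so could share tags with it. The intervals count each site as independent, and are too narrow to the extent that sites share peaks. With sites at least 500 bp apart the kept share was 56.6%.

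**Figure D1:**
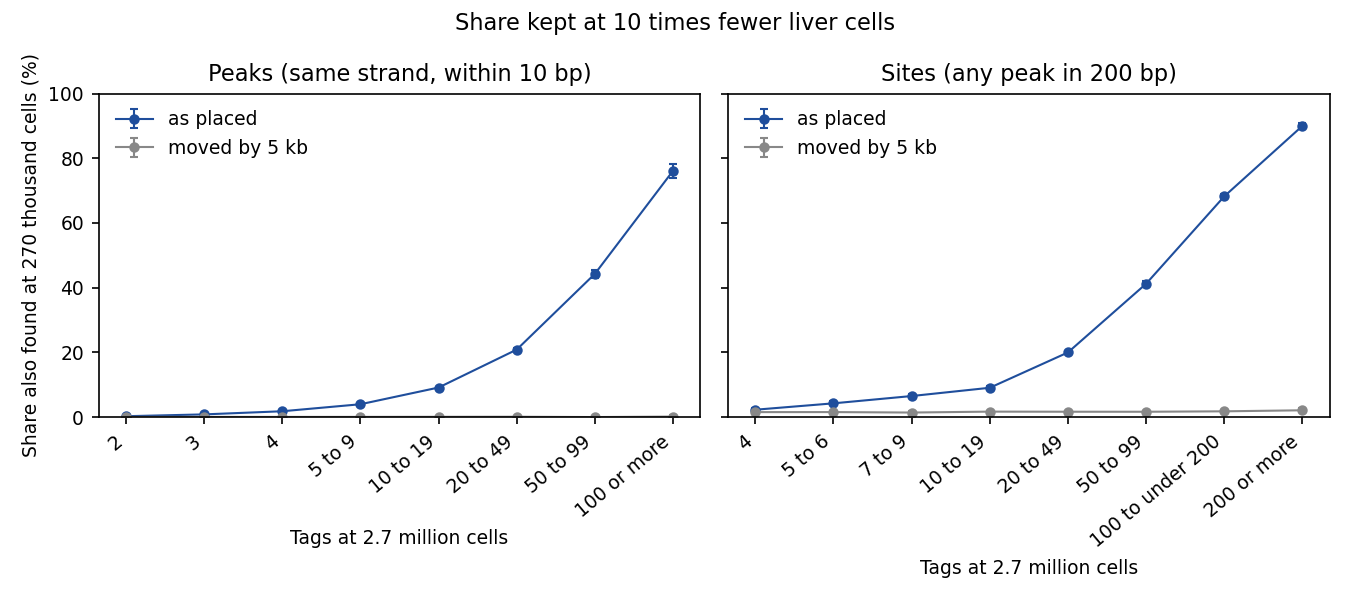
Share of peaks (left) and of sites (right) of 2,700,000 cells that were also found at 270,000 cells (y axis, %) by class of tags at 2,700,000 cells (x axis), with the same share after a move of 5 kb in grey. Points are shares and bars 95% Wilson intervals. Sites run from 2.30% at 4 tags to 90.0% at 200 or more, whereas moved windows stay near 2%.

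Single peaks, matched on strand and within 10 bp, followed the same order at a lower level. Of all peaks at 2,700,000 cells, 27305 had a counterpart at 270,000 cells, which is 2.05% against 0.0897% after the move. Of the 780794 peaks of 2 tags, 0.296% had one. The share was 3.996% at 5 to 9 tags, 20.9% at 20 to 49, 44.3% at 50 to 99, and 76.1% (74.0 to 78.2) at 100 or more. Most peaks of the larger library are weak, so the share over all peaks is set by them. Among the 9395 kept peaks of 20 or more tags, the median peak held 41 tags at 2,700,000 cells and 3 at 270,000, so that a typical kept peak lay close to the lowest count listed.

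Tags at sites were reduced more than the library as a whole. All tags together were 10.3 times fewer at 270,000 cells, and placed autosomal tags 12.4 times fewer, from 5787623 to 466777. Tags in site windows were 35.3 times fewer, and tags outside them 6.08 times fewer. Sites thus took 61.6% of placed autosomal tags at 2,700,000 cells and 21.6% at 270,000, a ratio of shares of 0.351 (0.349 to 0.354). Sites of 200 or more tags kept the highest ratio among the tag classes, 0.477 (0.472 to 0.483), and those of 4 tags the lowest, 0.217 (0.194 to 0.243). The sites were drawn from the larger library, which favours that library in this comparison.

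Peaks whose tags all begin at 1 position moved with this difference. They made up 33.7% of peaks in the larger library and 79.7% in the smaller, and held 16.9% and 79.5% of placed autosomal tags. In the other 5 libraries they made up between 79.7% and 94.5% of peaks, so the library of 2,700,000 cells is the one that stands apart. The strongest such peak held 48 tags at 2,700,000 cells and 17 at 270,000. Tags in the remaining peaks, here called spread, were 50.4 times fewer at 270,000 cells, from 4812264 to 95546. Of these tags, sites took 72.9% at 2,700,000 cells and 71.8% at 270,000, a ratio of 0.985 (0.978 to 0.993). Among spread peaks the strongest sites gained share, with a ratio of 1.70 (1.68 to 1.72) at 200 or more tags, 1.06 at 100 to under 200, 0.764 at 50 to 99 and 0.549 at 20 to 49. The share of tags at sites thus differed little between the libraries once peaks of 1 position were left out. Listed spread tags lay more at stronger sites in the smaller library. The classes were set by the larger library, however, and peaks below 2 tags are not listed. With fewer tags, weak sites fall below that floor sooner than strong ones, and its part in these ratios was not tested. What gave rise to peaks of 1 position was not tested.

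At the level of single sites, 21084 of the 28988 sites of 50 or more tags, or 72.7%, had a share of placed autosomal tags at least 2-fold lower at 270,000 cells, and 12672 of these had no listed peak. These are shares of all placed autosomal tags, of which peaks of 1 position held 79.5% at 270,000 cells and 16.9% at 2,700,000. Single tags are not listed and so count as none. The counts are given for all peaks and not for spread peaks alone. A share at least 2-fold higher was seen at 256 sites, or 0.883%. The 256 sites held a median of 66 tags at 2,700,000 cells and 14 at 270,000, and 75 of them, or 29.3%, had a peak in each of the 4 organ libraries, compared with 11.9% of all sites of 50 or more tags. All 256 are kept sites, whereas the 28988 include the 12672 lost ones, which had organ peaks less often, as described below. The 2 shares are therefore not of like sites. Over all sites of that strength the median ratio was 0.216, and over kept ones it was 0.488. The kept sites held a median of 117 tags at 2,700,000 cells and 5 at 270,000, and the lost ones a median of 77 at 2,700,000 cells.

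The strongest sites of all included sites with very many tags in every library. A site 125855 bp from Rab10os, a noncoding gene, on chromosome 12 from 3109836 to 3110035 held 3229 tags at 2,700,000 cells and 824 at 270,000, or 558 and 1765 per 1,000,000. It also held 63 tags at 27,000 cells and between 331 and 1818 in the organs. A site within Chl1, a neural cell adhesion gene, on chromosome 6 from 103649112 to 103649311 held 3152 and 801 tags, or 545 and 1716 per 1,000,000. The next site on either chromosome, within 200 bp of these, was also higher per 1,000,000 at 270,000 cells. Its window overlaps that of the first site in both cases, so the sites can count the same peaks. Of the remaining 6 of the 10 strongest kept sites, that nearest Cr2, a complement receptor gene, held 920 and 64 tags, 1 near Hjurp, which encodes a chaperone of centromeric histone, held 666 and 38, and 1 near Gm26763 held 600 and 12 tags. The 2 sites near Gm15319 held 751 and 63 tags, and 622 and 58. Their windows overlap, and at 2,700,000 cells the forward and reverse peaks of the second pair held only 45 and 3 tags. The site within 2210408I21Rik held 614 and 96 tags, or 106 and 206 per 1,000,000. Leaving out dense bins therefore did not remove all places of very many tags.

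The 10 strongest lost sites held between 311 and 451 tags at 2,700,000 cells and no listed peak at 270,000. The strongest lay 220520 bp from Gm35974 on chromosome 16 from 3247840 to 3248039, with 451 tags, and held no listed peak in any of the other 5 libraries. The next lay 4093 bp from Cry2, a gene of the circadian clock, on chromosome 2 from 92438078 to 92438277, with 372 tags there and 6 each in brain and lung. The site 618 bp from Cped1 held 357 tags. Sites within Erc2, which encodes a protein of the presynaptic active zone, Xirp2, which encodes an actin-binding protein of muscle, and Wwox held 337, 324 and 320 tags. The tags of a site are those of all peaks in its window. At Wwox the forward and reverse peaks of the pair itself held only 5 and 14 tags, so most of the 320 belonged to other peaks. The site within Lsm1, whose protein acts in mRNA decay, held 312, and those nearest Gm31416, Marcks and Gm36920 held 320, 318 and 311. At 3 of the 10, those of Cry2, Erc2 and Wwox, a peak of 270,000 cells lay just outside the window, at 177, 134 and 120 bp from the centre. At the other 7 sites the nearest peak lay at least 2711 bp away.

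Positions of kept peaks are bounded by the call, since a counterpart had to lie within 10 bp. Of the 9395 kept peaks of 20 or more tags, 12.6% had the same position in both libraries, 49.1% lay within 2 bp and 75.6% within 5 bp. Counterparts also lay farther out, since the kept share rose from 27.5% to 35.6% when 20 bp were allowed. At sites of 100 or more tags the commonest forward peak lay at -20 bp from the centre at 2,700,000 cells and at -21 bp at 270,000, and the commonest reverse peak at 21 and 22 bp. The stops were therefore 41 and 43 bp apart. The position of the strongest pair was set by the sites' own definition in the larger library but not in the smaller. Of the peaks in the windows, 44.97% lay within 40 bp of the centre at 2,700,000 cells and 55.4% at 270,000, and 66.1% and 78.5% of forward peaks lay upstream of it. Inner peaks, forward ones downstream of the centre and reverse ones upstream, were thus a smaller share of the stops listed at 270,000 cells. Weighted by tags the share within 40 bp was 57.4% and 58.0%, so that this difference was mostly one of weak peaks.

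**Figure D2:**
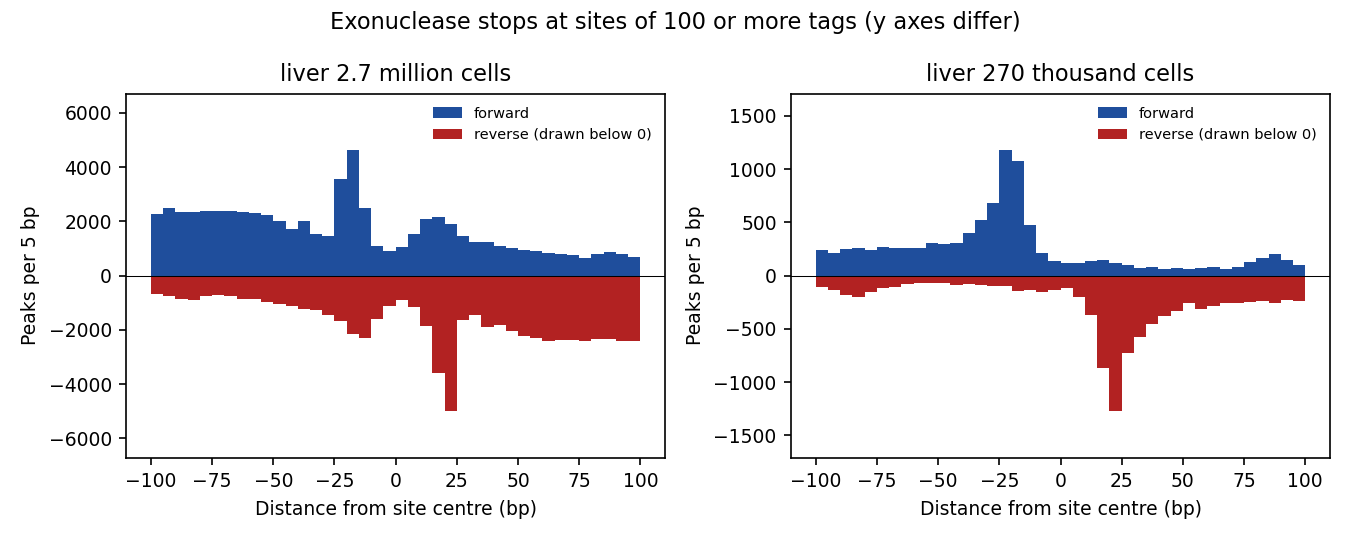
Number of peaks per 5 bp (y axis, which differs between panels) by position relative to the centre (x axis, bp) at 13642 sites of 100 or more tags, at 2,700,000 cells (left) and 270,000 cells (right), with forward peaks above 0 and reverse peaks drawn below. The commonest stops lie at -20 and 21 bp in the left panel and at -21 and 22 bp in the right, and the inner peaks of the left panel are low in the right.

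The motif showed little difference between kept and lost sites near starts. The same core was searched on both strands of 31363 RefSeq promoter windows of 250 bases before and 50 after the start, and 2.47% held it. Of windows with a kept site of 100 or more tags, 93 of 258 held the motif, or 36.0% (30.4 to 42.1), and of those with a lost site 15 of 39, or 38.5% (24.9 to 54.1). At 20 to 99 tags the shares were 16.1% for kept and 18.8% for lost sites, again with overlapping intervals. Of 722 places of the motif, 155 held 50 or more tags at 2,700,000 cells, and 116 of these, or 74.8%, held tags at 270,000. Read along the motif from its base 6, peaks on the motif's own strand had a median position of -18 bp at 2,700,000 cells and -28 bp at 270,000, and peaks on the opposite strand of 14 and 20 bp. These medians rest on 74 and 108 peaks at 270,000 cells. They run over all peaks around the motif, and the mix of peaks differed between the libraries. Of own-strand peaks, 62.99% lay upstream along the motif at 2,700,000 cells and 83.78% at 270,000. Of opposite-strand peaks, 38.97% and 12.04% did. The medians therefore cannot tell a move of the stops from a change in this mix. Other forms of the motif were not searched.

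Sites near transcription starts were kept more often than distant sites of like strength. Of sites of 100 to under 200 tags, 82.5% of those within 250 bp of a RefSeq start were kept (77.7 to 86.4, 291 sites) and 56.6% of those farther than 100 kb (51.9 to 61.1, 449 sites), a difference of 25.9 points (19.3 to 32.0). The difference was 30.5 points at 50 to 99 tags and 29.8 points at 20 to 49. At 200 or more tags 95.8% and 84.0% were kept, a difference of 11.8 points (1.97 to 21.7). Within narrower steps of tags the order was the same, with 78.5% against 44.1% at 100 to 119 tags and 82.6% against 62.8% at 180 to under 200. The intervals overlapped in the upper 3 of the 5 steps, from 140 tags on. Counting spread peaks alone the difference was 29.1 points at 100 to under 200 tags, 25.9 at 50 to 99 and 17.5 at 20 to 49. The table of starts used here covers 25748 of 33073 autosomal genes, and sites nearer to an end of a gene without a listed start than to a listed start were left out of these shares, 7600 of the 28988 sites of 50 or more tags. This was decided after the data were seen. With those sites kept in, the difference was 20.8 points (15.2 to 25.7) at 100 to under 200 tags, and at 200 or more it was 7.68 points, with an interval of -0.550 to 13.0 that includes 0.

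**Figure D3:**
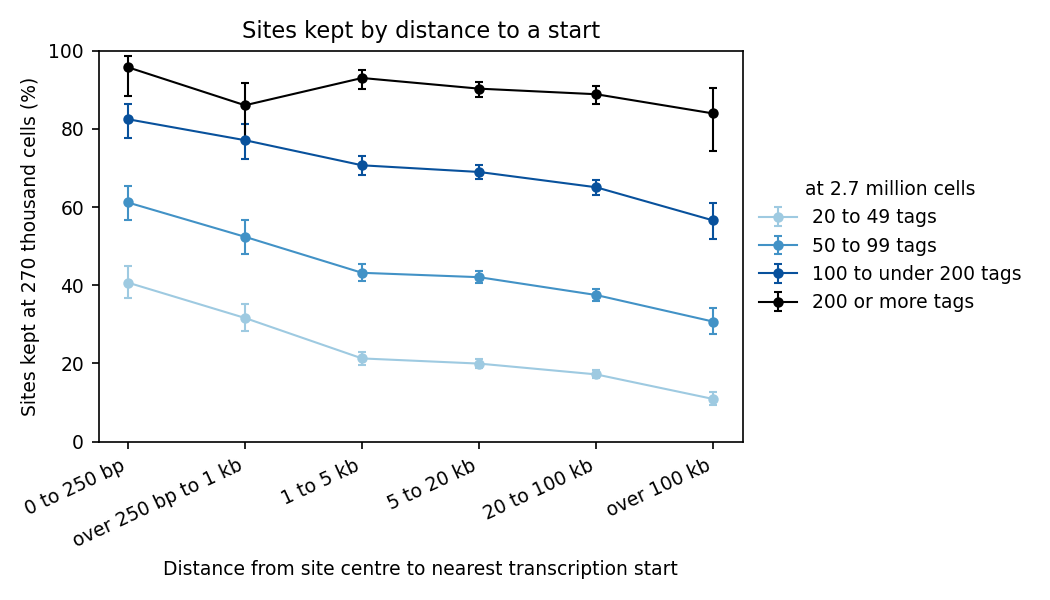
Share of sites kept at 270,000 cells (y axis, %) by distance from the site centre to the nearest transcription start (x axis), for 4 classes of tags at 2,700,000 cells. Points are shares and bars 95% Wilson intervals. In the class of 100 to under 200 tags the share runs from 82.5% within 250 bp to 56.6% beyond 100 kb.

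Distance to the ends of genes gave a like order. Of sites of 100 to under 200 tags, 76.6% were kept within 1 kb of a gene end, 66.2% inside genes, 70.0% within 20 kb of a gene, 65.9% within 100 kb, and 53.1% farther away. The first and the last of these differed by 23.5 points (16.7 to 30.4), and rested on 1265 and 228 sites. At 200 or more tags the difference was 4.03 points (-3.79 to 16.5), with only 50 sites in the far group. Away from strong sites, the share of peaks within 250 bp of a start was 1.77% at 2,700,000 cells and 1.74% at 270,000. For spread peaks it was 2.13% and 3.05%. Places near starts thus held a larger share of the spread peaks, though not of all peaks, of the smaller library outside sites of 50 or more tags. The part of this in the difference between places was not tested.

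Chromosomes differed little. Of sites of 50 or more tags, the kept share ran from 54.4% on chromosome 5 to 59.1% on chromosome 15. Among 205 windows of 10 Mb with at least 50 such sites, the median was 55.9% and the quartiles 52.7% and 60%. The lowest window, on chromosome 16 from 40000001 to 50000000, kept 36.4% of 66 sites (25.8 to 48.4). The highest, on chromosome 4 from 60000001 to 70000000, kept 76.7% of 90 (66.9 to 84.2). Both were picked as the extremes of the 205 windows.

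Sites kept at 270,000 cells were more often present in the organ libraries. Of sites of 100 to under 200 tags, 78.1% of the kept and 59.4% of the lost ones had a peak in brain, a difference of 18.7 points (16.8 to 20.6). In lung the shares were 64.3% and 45.5%, in kidney 56.0% and 38.2%, and in the liver organ 37.2% and 22.1%. With 27,000 liver cells 2.74% and 1.08% had one. In this class of tags the kept sites were ahead by more than the counting error in each of these libraries, and moved windows held a peak in at most 4.35% of cases. The difference in the liver organ was 15.1 points (13.3 to 16.9), and its interval narrowly overlaps that of brain. At 200 or more tags the order of these organs turned, with 20.6 points in the liver organ (15.2 to 25.4) and 16.3 in brain (11.4 to 21.7). At that strength the difference at 27,000 cells was 0.359 points, with an interval of -2.53 to 2.25 that includes 0.

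Taking the 4 organs together, the kept share of sites of 100 to under 200 tags was 43.99% where no organ had a peak, 58.5% where 1 did, and 68.4%, 76.7% and 84.9% where 2, 3 and 4 did. The median tags at 2,700,000 cells were 126 in the first group and 140 in the last. At 200 or more tags 129 of 172 sites were kept where no organ had a peak and 96.3% where all 4 did, and at 20 to 49 tags the shares were 10.6% and 51.0%. The median tags were 233 and 255 in the former class and 29 and 38 in the latter. Presence in organs thus ordered the sites within each of these classes of tags, but strength rose with it inside each class.

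**Figure D4:**
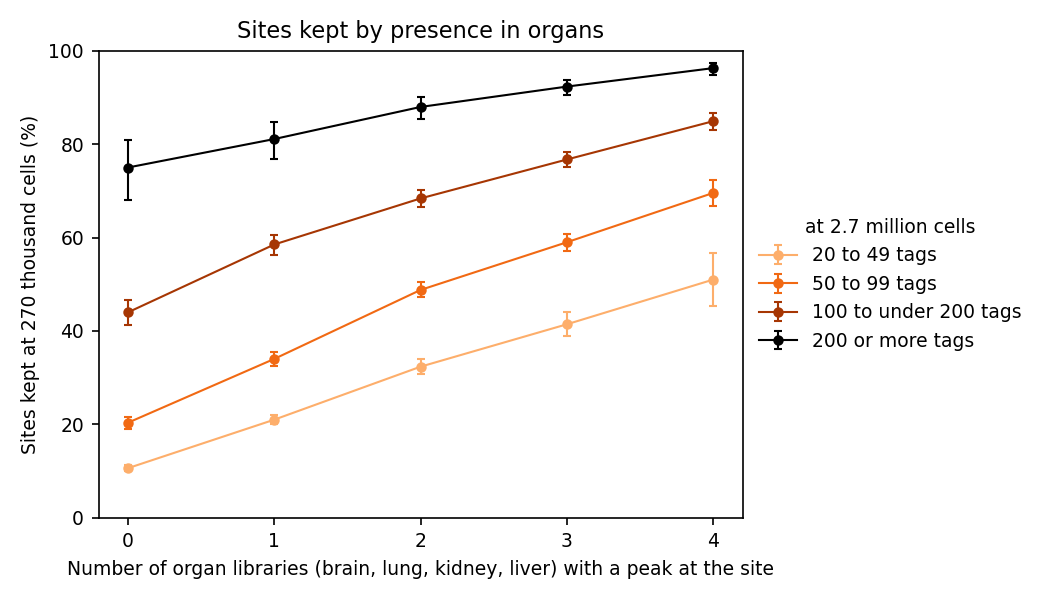
Share of sites kept at 270,000 cells (y axis, %) by the number of organ libraries with a peak at the site (x axis), for 4 classes of tags at 2,700,000 cells. Points are shares and bars 95% Wilson intervals. Each line is highest where all 4 organs had a peak, at 84.9% in the class of 100 to under 200 tags.

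Place and presence in organs were related. Of sites of 100 to under 200 tags, 43.0% of those within 250 bp of a start had a peak in all 4 organs (37.4 to 48.7), and 5.79% of those beyond 100 kb (3.98 to 8.35). Where few organs shared a site the kept share still differed by place. With a peak in 0 or 1 organ, 74.1% of sites near starts and 42.8% of distant ones were kept, a difference of 31.3 points (11.4 to 45.5) with 27 sites near starts. With a peak in 2 or 3 organs the shares were 81.3% and 69.6%, a difference of 11.7 points (2.24 to 20.5). With a peak in all 4 organs they were 85.6% and 80.8%, a difference of 4.83 points (-8.09 to 24.2) that rests on 26 distant sites. The intervals of these 3 differences overlap, and whether the differences themselves differ was not tested. At 50 to 99 tags the differences were 24.2, 6.45 and -5.03 points in the same order, and the intervals of the last 2, -2.66 to 15.5 and -18.3 to 14.7, include 0. At 20 to 49 tags the difference did not shrink in this way, with 23.4 points at 0 or 1 organ, 17.5 points (8.37 to 25.9) at 2 or 3, and 26 of 52 against 1 of 4 sites kept where all 4 organs had a peak.

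Kept shares also differed by the width of a site, without a steady trend. Among sites of 100 to under 200 tags, 62.9% of those whose strands were 25 to 34 bp apart were kept and 73.3% of those 45 to 54 bp apart, a difference of 10.4 points (7.33 to 13.5). With sites at least 100 bp apart, these are the lowest and the highest of 5 classes of width. The narrowest sites, 10 to 24 bp, were kept in 67.0% of cases and the widest, 55 to 80 bp, in 69.4%. Sites of 25 to 34 bp held a median of 138 tags at 2,700,000 cells and those of 45 to 54 bp 130, so the difference ran against the number of tags. It was 4.31 points at 20 to 49 tags, where sites of 10 to 24 bp had the highest share, 22.7%, and 8.09 points at 50 to 99 and 7.27 at 200 or more. The balance of tags between strands made little difference, with 66.2% kept where the weaker strand had under 20% of the pair's tags and 69.3% where it had 40 to 50%. Sites with 5 to 6 peaks were kept in 62.3% of cases and those with 11 or more in 69.2%, but the latter held a median of 139 tags and the former 120.

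The smaller library was also searched for peaks that the larger one lacked. Of its 150469 peaks, 123833, or 82.3%, had no peak of the same strand within 10 bp at 2,700,000 cells. The answer depended on the kind of peak. Of the 119942 peaks of 1 position, 7.43% were found at 2,700,000 cells (7.28 to 7.58), and the share was between 6.81% and 8.24% from 2 tags up to 9. Of the 30527 spread peaks, 58.1% were found (57.5 to 58.6), from 48.0% at 2 tags through 65.6% at 3 and 76.5% at 5 to 9 to 92.5% at 10 to 19. Of the 59 peaks of 1 position with 10 to 19 tags, 9 were found, or 15.3% (8.24 to 26.5). At each number of tags the share found was higher for spread peaks than for peaks of 1 position.

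**Figure D5:**
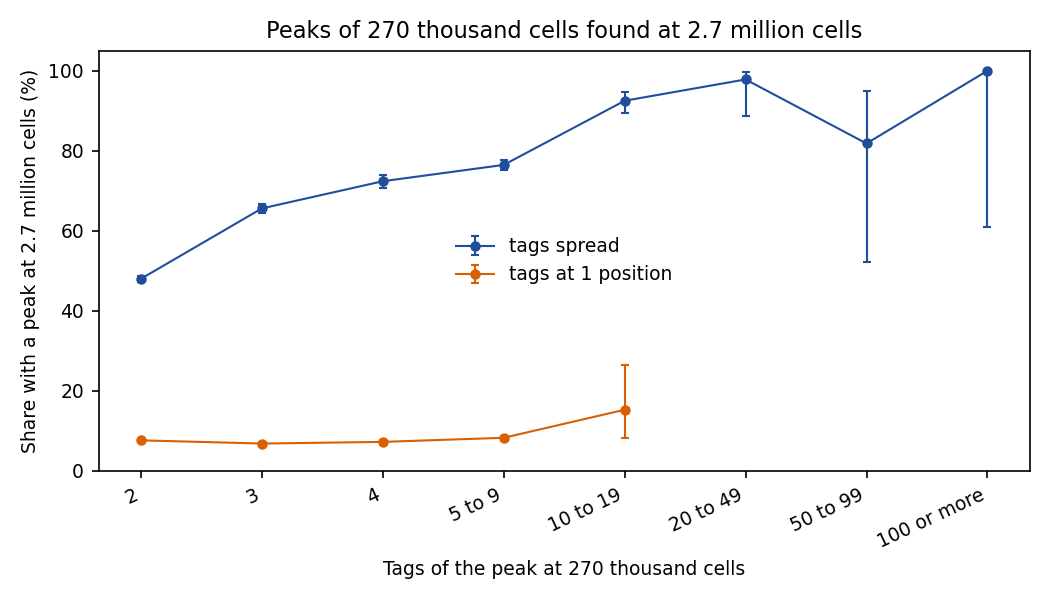
Share of peaks of 270,000 cells with a peak of the same strand within 10 bp at 2,700,000 cells (y axis, %) by the number of tags of the peak (x axis), for spread peaks and for peaks of 1 position. Points are shares and bars 95% Wilson intervals. Spread peaks run from 48.0% at 2 tags to 92.5% at 10 to 19, and the classes above hold 46, 11 and 6 peaks.

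Spread peaks that were not found at 2,700,000 cells still matched other libraries more often than moved ones. A brain peak of the same strand lay within 10 bp of 6.97% of them, against 0.125% after the move, and shares in lung, kidney and the liver organ were 4.29%, 3.49% and 2.14%. Of peaks of 1 position that were not found, 0.476% had a brain peak and 0.142% did after the move. Spread peaks that were found had one in 24.9% of cases. The 5 strongest peaks with none of 2,700,000 cells within 100 bp held 12 or 13 tags each, all at 1 position. The nearest genes were Pvalb at 8713 bp, C330020E22Rik, Adam24, Gm29536 and Uap1, and apart from 3 tags in the liver organ at the last, no other library listed a peak there.

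Known CTCF loci were kept at a share near that of all genes. Of 27066 autosomal genes with a site within 20 kb, the strongest such site was kept for 13750, or 50.8%. Of 24 genes at textbook loci 22 had a site, and the strongest was kept for 13, or 59.1% (38.7 to 76.7). Shh, which encodes a morphogen of limb and neural tube, had a site on chromosome 5 from 28451273 to 28451472 with 232 tags at 2,700,000 cells and 10 at 270,000. The site of Hbb-bt, a beta globin gene, held 189 and 8 tags, that of Epha4, an ephrin receptor gene, 187 and 2, and that of Lmbr1, which hosts the limb enhancer of Shh, 166 and 2. The site of Hba-a1, an alpha globin gene, held 149 and 3 tags and that of Ihh, another hedgehog ligand gene, 114 and 4. The insulated proto-oncogene Myc had 76 and 6, and Hoxa9 and Hoxa10, body patterning genes that share a site, 72 and 2. These kept sites thus ranged widely in strength but most held fewer than 10 tags in the smaller library.

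Imprinted genes at these loci fell on both sides. The strongest site near Igf2, a growth factor gene expressed from the paternal allele, held 91 and 2 tags, and that of Dlk1 63 and 2. The strongest site near H19, its maternally expressed neighbour, held only 7 tags at 2,700,000 cells, that of Mest 9, and both were lost. Meg3 and Peg3 had sites of 93 and 107 tags that were lost. Kcnq1ot1 had no site within 20 kb, nor had Kcnj2. Other lost sites were those of Sox9, a regulator of cartilage and sex determination, with 148 tags, App, which encodes the amyloid precursor, with 132, Tert, the telomerase gene, with 27, Pvt1 with 23 and Pax3 with 6. Hoxd13 and Cdkn2a had more per 1,000,000 at 270,000 cells, with 38 and 8 tags, and 48 and 7.

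The remaining lists are described by their counts, without a test. Of liver secretion and metabolism genes, the strongest site was kept for 15 of 22, or 68.2% (47.3 to 83.6). Apoa1 and Apoc3 share a kept site, which was counted for each. The site of Ass1, an enzyme of the urea cycle, held 397 and 17 tags, and the strongest lost one, near Cyp7a1, the rate-limiting enzyme of bile acid synthesis, 224 tags. Of hepatocyte transcription factor genes the strongest site was kept for 11 of 15, and their strongest sites held a median of 165 tags against 87 over all genes. The kept site counted for Nr1i3 is also that of Apoa2 in the list before. The site near Onecut1 held 452 and 27 tags. Of CTCF and cohesin genes, 4 of 9 were kept, with 182 and 3 tags near Smc3, a core cohesin subunit, and a lost site of 153 tags near Ctcf itself, where a peak of 270,000 cells lay 123 bp from the centre, just outside the window. Of neuron and glia genes 4 of 8 were kept, with 189 and 9 tags within Rbfox3, a neuronal splicing factor gene, and a lost site of 114 tags within Slc17a7, a vesicular glutamate transporter gene. Of widely expressed genes 4 of 10 were kept, with 504 and 25 tags near Rplp0, a ribosomal protein gene, and a lost site of 235 tags near Hsp90ab1, a chaperone gene, again with a peak just outside the window, at 143 bp. The intervals of all 6 lists include the 50.8% of all genes. CTCF tags mark places in the genome and do not measure expression, so these lists cannot check the tissue.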

How the data were processed

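The 7 libraries were sequenced by the authors with paired reads of 40 bp, and the submitters' processing notes name BWA 0.7.9a, bcl2fastq 2.16 and mm10. The study's methods name the yeast and human genomes, and state that alignments that were not unique and duplicates identical at both read ends were removed. The authors deposited 1 peak list per library. It gives each peak's raw count of tags and how far these scatter, as a standard deviation in bp, which is 0 where all tags share 1 position. The caller named in the lists is genetrack. Deposited counts summed to 6592538 tags at 2,700,000 and 640635 at 270,000 cells, and to between 35594 and 1635582 in the other libraries.

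Sites were taken in order of tags at least 100 bp apart. Shares carry Wilson intervals, differences of shares Newcombe intervals, and ratios of shares exact intervals from the binomial conditional on both counts. Gene places came from 33073 autosomal protein-coding and long noncoding genes of RefSeq, and starts from the promoter table. Named sites were the strongest within 20 kb of each textbook gene, the 10 strongest kept and lost sites, the 5 strongest peaks of the smaller library alone, and from each other list the strongest site and strongest lost site. Of the sites this rule names, 1 is not reported here. The sites whose sequences are printed were chosen after their values were seen, to show the motif. The members, lists and tests were chosen with earlier results of these data known. The steps that find pairs, sites and matches were tested on simulated data. Analyses ran in Python 3.11.15 with scipy 1.17.1, pandas 2.3.3 and numpy 2.4.6, and plots in matplotlib 3.10.9. Of the list of CTCF and cohesin genes, 10 of 11 symbols matched the annotation.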

Additional observations from a re-analysis of the deposited data

Results flagged for a closer look

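Tags outside the places compared above were looked at because they take a sizeable part of the smaller library. The mitochondrial genome held 0.910% of all tags at 2,700,000 cells and 1.84% at 270,000, a ratio of shares of 2.02 (1.98 to 2.06). The autosomal dense bins held 5.42% and 14.9%, a ratio of 2.75 (2.73 to 2.77). Unplaced sequences held 3.24% and 8.14%, a ratio of 2.51 (2.49 to 2.53). The sex chromosomes went different ways. Chromosome X held 1.78% and 1.87%, a ratio of 1.05 (1.03 to 1.07), whereas chromosome Y held 0.858% and 0.369%, a ratio of 0.429 (0.412 to 0.447), from 56588 tags in 11973 peaks to 2361 tags in 850 peaks. The share of chromosome Y in the smaller library lies within the range of the organ libraries, 0.234% to 0.415%. No control library without CTCF antibody was used here, and the cause of these differences was not tested.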

How the results depend on the processing

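Of 34 alternative values 18 moved beyond the counting interval. Most of them are shares, which have no direction to change, and the differences among them kept their sign. The count of tags at sites by spread peaks alone, given above, is not among the 34. It took the ratio of shares from 0.351 to 0.985. At sites of 200 or more tags it took the ratio from 0.477 to 1.70, which reversed its direction. Peaks of 20 or more tags were kept in 27.5% of cases, and in 20.8% within 5 bp, 35.6% within 20 bp, 18.02% with at least 3 tags in both libraries, 23.0% without peaks of 1 position, 31.0% with no bin left out and 28.1% with only bins dense in at least 6 of 7 libraries left out. Sites of 50 or more tags were kept in 56.3% of cases, and in 42.7% with a window of 100 bp, 65.8% with 400 bp, 42.8% where at least 3 tags were asked for, 13.1% where a peak pair was, 44.9% without peaks of 1 position and 57.1% with no bin left out. Peaks of the smaller library not found in the larger, 82.3%, were 77.5% within 20 bp, 69.3% within 100 bp on either strand, 42.4% without peaks of 1 position in both and 41.9% for spread peaks against all peaks. The ratio of shares of tags at sites, 0.351, was 0.545 with peaks of 1 position counted as 1 tag. The difference by pair width, 10.4 points, was 13.5 with sites 500 bp apart. At that spacing the lowest class of width was 10 to 24 bp, with 57.6% of 125 sites kept, against 60.2% at 25 to 34 bp. Values by place, in other libraries and by gene list stayed within their intervals, and the distances between stops, which have no interval, remained at 41 and 43 bp. The alternatives on spacing of places, organs, width and lists, on starts, on the class of 50 to 99 tags, and on spread peaks in places and in the reverse search were chosen after seeing the data. Peaks of a single tag are not listed, and the part of depth in the loss of sites cannot be told apart from that of cell number. No paired analysis was possible because each side has 1 library.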
